A study of Vicia sativa with 8 samples.

Results

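The 6 CIN clade unigenes of the TCP transcription factor family were examined in the common vetch (Vicia sativa), out of 71553 assembled unigenes with reads. They were taken as the unigenes that the study's phylogenetic tree of TCP domains places in the CIN clade, namely Unigene3211, Unigene136, Unigene67998, Unigene66908, Unigene32847 and Unigene70394. RNA-Seq was performed on 8 organs of the cultivar Lanjian 3, with 1 library per organ. Stamens, carpels, sepals and the dorsal, lateral and ventral petals came from flowers at floral stage 12 on plants about 45 days old, whereas leaves and roots came from seedlings 2 weeks old. The flowering plants grew in a greenhouse at 22°C with 16 h of light and 8 h of dark. The same light and temperature were recorded for the seedlings, for which the study's methods name no greenhouse. Flower against seedling therefore cannot be told apart from plant age, and by the study's methods the floral organs were dissected from flowers pooled over many plants. There are no replicates, so no test across organs was possible. The 95% intervals given are exact Poisson intervals on reads or exact binomial intervals on ratios and shares of reads, and cover counting error only. For ratios of summed levels and of the mean of petals, the interval of the pooled reads was rescaled to the ratio of RPKM. Those intervals are therefore approximate, and for sums they leave out the extra weight that RPKM gives to short unigenes. In these whole organs, fewer cells that express a gene and less RNA per cell cannot be told apart.

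TCP proteins share a DNA-binding domain named after TEOSINTE BRANCHED1 of maize, CYCLOIDEA of snapdragon and the PCF proteins of rice. The CIN clade, which belongs to Class II of the family, is named after CINCINNATA of snapdragon, whose loss gives crinkled leaves and altered petal lobes. CIN proteins are known for moving cells of flat organs from division to differentiation. In Arabidopsis, microRNA miR319 cuts the transcripts of TCP2, TCP3, TCP4, TCP10 and TCP24, and leaves those of TCP5, TCP13 and TCP17 uncut. Known downstream steps in Arabidopsis include activation of jasmonate synthesis and repression of boundary NAC genes, class I KNOX genes and growth-regulating factors.

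Depth was even, since the median library held 5706811 uniquely aligned reads and the others lay between 93.8% and 110% of it, with 59826 to 65453 unigenes detected in each. Expression is given as RPKM, the reads of a unigene scaled to its length in kilobases and to the reads of its library, so that levels of different unigenes are compared per length. Unigenes annotated as APETALA3 or PISTILLATA type MADS-box proteins summed to 626 RPKM in stamens and 819 to 937 RPKM in the petals, with at most 11.8 RPKM elsewhere. AGAMOUS summed to 315 RPKM in stamens and 216 RPKM in carpels, with at most 10.2 RPKM elsewhere. Chlorophyll a/b-binding proteins (11 unigenes) summed to 29290 RPKM in leaves, 7710 RPKM in sepals, 3310 RPKM in carpels and 262 RPKM in roots. The root markers, leghemoglobin and Casparian strip proteins, matched 0 annotated unigenes, so the root label was not checked with markers of its own.

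The 6 CIN unigenes together had 7225 reads. Of these, 5 are long for this assembly, whose median unigene length is 302 bp: Unigene136 has 1269 bp, Unigene70394 has 1213 bp, Unigene3211 has 973 bp, Unigene67998 has 843 bp and Unigene66908 has 753 bp. Unigene32847 is a fragment of 203 bp with 108 reads over all libraries, and its values carry the widest intervals. In the deposited annotation against the NCBI non-redundant (nr) protein database, Unigene3211, Unigene136 and Unigene70394 match PCF6 of rice, and Unigene67998 matches PCF8 of rice. Unigene66908 matches a TCP family protein of maize, and Unigene32847 matches a rice locus, Os07g0152000, whose entry does not name the family. The study pairs Unigene3211 with TCP13 of Arabidopsis, also called PTF1. It also pairs Unigene70394 with TCP4 of Arabidopsis, but that match is short and weak, so the unigene may not be the vetch TCP4. For the other 4 no Arabidopsis counterpart was used here. The sequences of the unigenes were not used here.

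Unigene3211, the TCP13 counterpart, was expressed in the perianth and stamens and was close to background in carpels and roots. Sepals had 368 reads, dorsal and lateral petals 305 each, ventral petals 247, stamens 138, leaves 49, carpels 4 and roots 3. In the same order these reads correspond to 60.2, 54.3, 53.2, 45.0, 26.4, 9.41, 0.756 and 0.528 RPKM. Sepals and the 3 petal types form the high end of the order, and each of their neighbouring pairs has an interval that holds 1. The ends of this run lay apart, with counting intervals of 54.22 to 66.69 RPKM in sepals and 39.55 to 50.96 RPKM in ventral petals. From ventral petals the level steps down to stamens by a factor of 1.70 (95% interval 1.38 to 2.11), from stamens to leaves by 2.81 (2.01 to 3.97) and from leaves to carpels by 12.5 (4.57 to 47.5). Carpels and roots were not distinguishable at this depth. The few reads in these organs covered 17.99% of the unigene in carpels and 15.11% in roots, against 87.1% in leaves. Sepals exceeded carpels 79.7-fold (30.9 to 294) and roots 114-fold (38.7 to 555.4).

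Unigene136, which shares the rice PCF6 annotation, was led by dorsal petals. Its reads numbered 469 in dorsal petals, 374 in lateral petals, 266 in sepals, 217 in leaves, 199 in ventral petals, 121 in stamens, 105 in carpels and 0 in roots. The levels were 64.0 RPKM in dorsal petals, 50.1 in lateral petals, 33.4 in sepals, 32.0 in leaves, 27.8 in ventral petals, 15.2 in carpels and 17.8 in stamens. Dorsal petals stood above lateral petals by a factor of 1.28 (1.12 to 1.47), and lateral petals above sepals by 1.5 (1.28 to 1.76). Sepals and leaves, leaves and ventral petals, and stamens and carpels did not differ beyond counting error. With RPKM rescaled by TMM factors (a correction for library composition), leaves were at 41.35 RPKM, sepals at 31.24 and ventral petals at 25.55. Against a set limit of 3 reads for a count of 0, dorsal petals were at least 158-fold higher than roots. That limit is 0.405 RPKM for a unigene of this length, while the exact Poisson interval for 0 reads reaches 0.498 RPKM.

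Both Unigene3211 and Unigene136 thus had at most 3 reads in roots. They differ in carpels, where Unigene136 kept 105 reads and Unigene3211 had 4, and in leaves, where Unigene136 reached 32.0 RPKM against 9.41 RPKM for Unigene3211.

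Unigene67998, the PCF8 match, was highest outside the petals. It had 212 reads in leaves, 197 in carpels, 146 in sepals, 121 in dorsal petals, 108 in ventral petals, 88 in lateral petals, 61 in stamens and 55 in roots. On the RPKM scale leaves were at 47.0, carpels at 43.0, sepals at 27.6, dorsal petals at 24.9, ventral petals at 22.7, lateral petals at 17.7, stamens at 13.5 and roots at 11.2. Leaves and carpels did not differ beyond counting error, and carpels stood above sepals by 1.56 (1.25 to 1.94). From sepals downward every neighbouring pair had an interval that holds 1, so the lower part of the order is gradual. Leaves exceeded roots 4.20-fold (3.11 to 5.77).

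Unigene66908 had the highest RPKM of the 6 in 5 organs, and its RPKM was nearly the same in leaves and dorsal petals. Its reads were 379 in dorsal petals, 354 in leaves, 344 in lateral petals, 261 in sepals, 181 in carpels, 131 in ventral petals, 100 in roots and 53 in stamens. The corresponding levels were 87.2, 87.9, 77.6, 55.2, 44.2, 30.8, 22.7 and 13.1 RPKM. On RPKM, leaves, dorsal petals and lateral petals form the top of the order without a difference beyond counting error between neighbours. After TMM rescaling leaves were at 113.7 RPKM, dorsal petals at 77.3 and lateral petals at 69.65. Each of the 5 steps below them excluded 1, down to roots over stamens at 1.74 (1.23 to 2.47). The level in leaves was 6.70 times that in stamens (5.01 to 9.13).

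Unigene32847, the short fragment, had 28 reads in lateral petals, 25 in dorsal petals, 19 in stamens, 15 in leaves, 7 in each of sepals, ventral petals and carpels, and 0 in roots. This gave 23.4, 21.3, 17.4 and 13.8 RPKM in the first 4 organs, 5.49 in sepals, 6.11 in ventral petals and 6.34 in carpels. Among the organs with reads, no neighbouring pair in this order differed beyond counting error. Lateral petals exceeded sepals 4.27-fold (1.82 to 11.6). Against a set limit of 3 reads in roots, lateral petals were at least 9.26-fold higher. That limit is 2.53 RPKM, because the unigene is short, and the exact Poisson interval for 0 reads reaches 3.11 RPKM.

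Unigene70394, a PCF6 match whose pairing with TCP4 is weak, varied least among the 6. It had 209 reads in stamens, 183 in sepals, 177 in lateral petals, 176 in leaves, 158 in ventral petals, 114 in dorsal petals, 95 in carpels and 44 in roots. The levels were 32.1 RPKM in stamens, 27.1 in leaves, 24.8 in lateral petals, 24.02 in sepals, 23.1 in ventral petals, 16.3 in dorsal petals, 14.4 in carpels and 6.21 in roots. Stamens, leaves, lateral petals, sepals and ventral petals followed each other without a step between neighbours beyond counting error. The ends of this run lay apart, with counting intervals of 27.88 to 36.74 RPKM in stamens and 19.62 to 26.97 RPKM in ventral petals. With RPKM rescaled by TMM factors (a correction for library composition), leaves (35.1 RPKM) stood above stamens (32.1 RPKM). Ventral petals stood above dorsal petals by 1.42 (1.11 to 1.82), and carpels above roots by 2.32 (1.60 to 3.39).

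**Figure D1:**
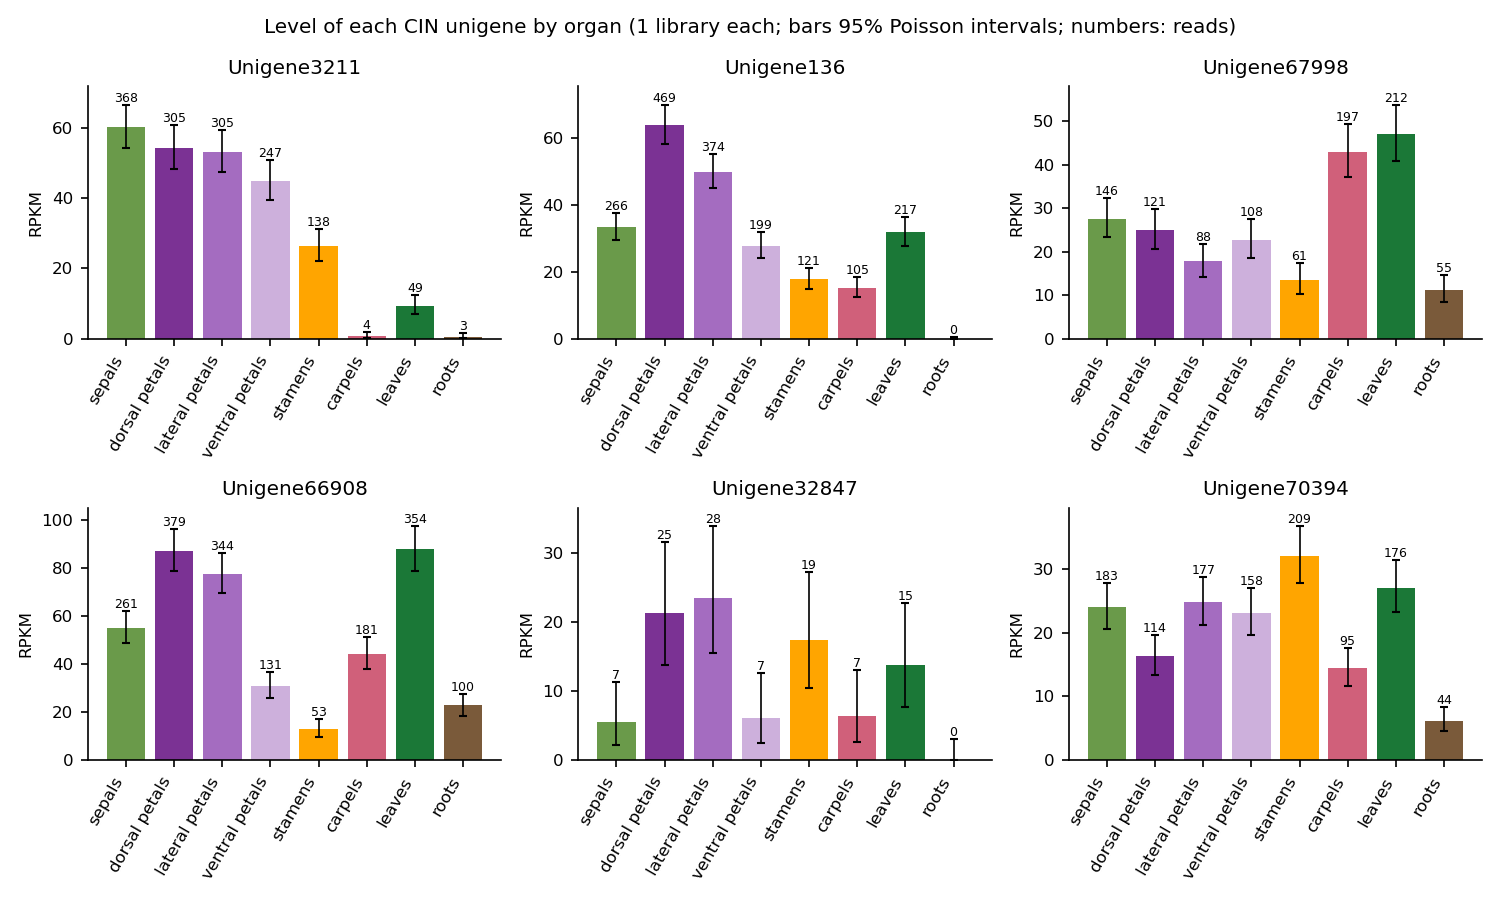
RPKM (y axis, linear, from 0) of each CIN unigene in the 8 organs (x axis), 1 library per organ, with 95% exact Poisson intervals as error bars and the read count above each bar. Roots are the lowest organ for 5 of the 6 and stamens for Unigene66908, while the highest organ is sepals, dorsal petals, leaves, lateral petals or stamens depending on the unigene.

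The spread over organs was summarized by the SD of RPKM divided by its mean, the coefficient of variation. It was 0.391 for Unigene70394, 0.502 for Unigene67998, 0.562 for Unigene66908, 0.672 for Unigene136, 0.722 for Unigene32847 and 0.804 for Unigene3211. Counting error alone would give 0.0833 for Unigene70394 and 0.272 for Unigene32847. The median over the 44987 unigenes with at least 100 reads was 0.591. Of these, 22.6% had a lower value than Unigene70394 and 68.3% a lower value than Unigene3211, so the 6 lie on both sides of the middle of the transcriptome.

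The cutoffs of the study's methods were used to call unigenes. As applied here, a unigene is enriched in an organ when its level is more than 2.0 times that of the highest other organ (Ratio) and its Z-score against the other organs exceeds the study's cutoff. None of the 6 CIN unigenes was enriched in any of the 8 organs, nor in the mean of all petals or in the A domain (sepals and petals), B domain (petals and stamens) or C domain (stamens and carpels). Over all unigenes, 32.9% were enriched in at least 1 of these 12 categories.
A unigene is downregulated when its level is less than 0.5 of the mean of the other organs and its Z-score is below -1.5. In roots this held for 3 of the 6, Unigene136 (Z-score -1.97), Unigene32847 (-1.77) and Unigene70394 (-2.77), beside 4.0% of all unigenes. In stamens it held for Unigene66908, with a Ratio of 0.226 and a Z-score of -1.67, beside 4.83% of all unigenes. For Unigene3211 no organ was called. Its Z-score was -1.47 in carpels and -1.49 in roots, just above the cutoff of -1.5, and each of these low organs enters the spread that the other is measured against. In the A domain its Ratio of 2.01 passed the cutoff and its Z-score of 3.615 did not, while with the population SD the Z-score passed and Unigene3211 was enriched there. When only the 6 floral organs were compared, Unigene136 was enriched in the A domain and Unigene32847 in the B domain.

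Within the corolla the 6 differed in which petal types were higher and by how much. The dorsal petal (standard), the lateral petals (wings) and the ventral petals (keel) give the papilionoid flower its single plane of symmetry. Between dorsal and ventral petals, 3 of the 6 were above 2-fold and 0 below 0.5, where 8.80% of unigenes with at least 10 reads in either organ were above 2-fold and 11.8% below 0.5. The median ratio was 1.76 for the 6 and 1.03 for all these unigenes. Unigene66908 was 2.83-fold higher in dorsal petals (2.31 to 3.48), Unigene136 was 2.30-fold higher (1.95 to 2.74) and Unigene32847 was 3.49-fold higher (1.47 to 9.56). The fragment Unigene32847 rests on 25 against 7 reads. Unigene3211 differed by a factor of 1.21 (1.02 to 1.43), and Unigene67998 by 1.10 with an interval that holds 1 (0.838 to 1.43). Unigene70394 went the other way, with a ratio of 0.706 (0.550 to 0.904).

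Lateral over ventral petals gave the same direction for Unigene66908, 2.52 (2.05 to 3.10), for Unigene32847, 3.83 (1.64 to 10.4), and for Unigene136, 1.80 (1.51 to 2.15). Thus 2 of the 6 were above 2-fold and 0 below 0.5, where the shares over all unigenes were 7.58% and 11.5%. Unigene3211, Unigene67998 and Unigene70394 had ratios of 1.18, 0.781 and 1.07 with intervals that hold 1. Both comparisons share the ventral petal library, so they are not independent. Unigenes annotated with the word pollen (79 unigenes) summed to 4101 RPKM in this library and 10170 RPKM in stamens. They summed to 1838 RPKM in dorsal petals, 1877 in lateral petals, 2625 in carpels and 1599 in sepals. In roots they summed to 1720 RPKM and in leaves to 1028, so these unigenes are not specific to pollen. Their part in these ratios was not tested.

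Between dorsal and lateral petals none of the 6 was past 2-fold, beside 4.35% of all unigenes above 2-fold and 3.17% below 0.5. Unigene70394 was lower in dorsal petals at 0.657 (0.515 to 0.836). Unigene136 was higher there at 1.28 (1.12 to 1.47), as was Unigene67998 at 1.40 (1.06 to 1.87). For the other 3 the interval held 1.

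Petals against leaves compare flat organs of flower and seedling. Unigene3211 was 5.40-fold higher in the mean of the 3 petal types (4.05 to 7.36), and Unigene67998 was lower, at 0.463 of the level in leaves (0.388 to 0.554). Thus 1 of the 6 was above 2-fold and 1 below 0.5, where the shares over all unigenes were 37.8% and 15.6%. The median ratio was 1.01 for the 6 and 1.504 for all unigenes tested. Unigene136 had a ratio of 1.48 (1.28 to 1.72), Unigene66908 of 0.742 (0.655 to 0.843), Unigene70394 of 0.789 (0.661 to 0.944) and Unigene32847 of 1.23 (0.689 to 2.33). With RPKM rescaled by TMM factors, which set the median over all unigenes with at least 100 reads close to equal, the ratio was 3.76 for Unigene3211, 0.322 for Unigene67998 and 1.03 for Unigene136.

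Sepals against leaves gave a similar split. Unigene3211 was 6.40-fold higher in sepals (4.74 to 8.81), whereas Unigene66908 was at 0.628 (0.533 to 0.739) and Unigene67998 at 0.587 (0.472 to 0.728) of the level in leaves. Unigene32847 had a ratio of 0.398 from 7 against 15 reads, with an interval that holds 1 (0.137 to 1.04), and so did the intervals of Unigene136 and Unigene70394. In all, 1 of the 6 was above 2-fold and 1 below 0.5, beside 30.0% and 10% of all unigenes. After TMM rescaling 3 were below 0.5, Unigene67998 at 0.424, Unigene66908 at 0.454 and Unigene32847 at 0.288. The petal and sepal comparisons share the leaf library.

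Leaves exceeded roots for all 6 CIN unigenes. The ratio was 4.20 for Unigene67998 (3.11 to 5.77), 3.86 for Unigene66908 (3.09 to 4.87) and 4.36 for Unigene70394 (3.12 to 6.22). Unigene3211 gave 17.8 from 49 against 3 reads, with a wide interval (5.75 to 89.4). Unigene136 and Unigene32847 had 0 reads in roots. Against a limit of 3 reads there, leaves were at least 78.9-fold higher for Unigene136 and at least 5.46-fold higher for Unigene32847, and the exact binomial intervals on the reads begin at 63.6 and 3.91. Over all unigenes with at least 10 reads in either organ, 21.2% were above 2-fold and 37.7% below 0.5, and the median ratio was 0.678. The seedling library of roots was also low in chlorophyll-binding transcripts, as given above.

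Stamens against carpels divided the 6 in both directions. Unigene3211 had 138 reads in stamens against 4 in carpels, a ratio of 34.9 (13.3 to 130.1). Unigene70394 was 2.23-fold higher in stamens (1.74 to 2.87) and Unigene32847 was 2.75-fold higher (1.11 to 7.74). In contrast, Unigene67998 was at 0.314 (0.231 to 0.420) and Unigene66908 at 0.297 (0.214 to 0.405) of the level in carpels. Unigene136 did not differ beyond counting error, at 1.17 (0.891 to 1.53). Thus 3 of the 6 were above 2-fold and 2 below 0.5, where the shares over all unigenes were 38.8% and 24.6%. After TMM rescaling Unigene70394 was at 1.83, within 2-fold.

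**Figure D2:**
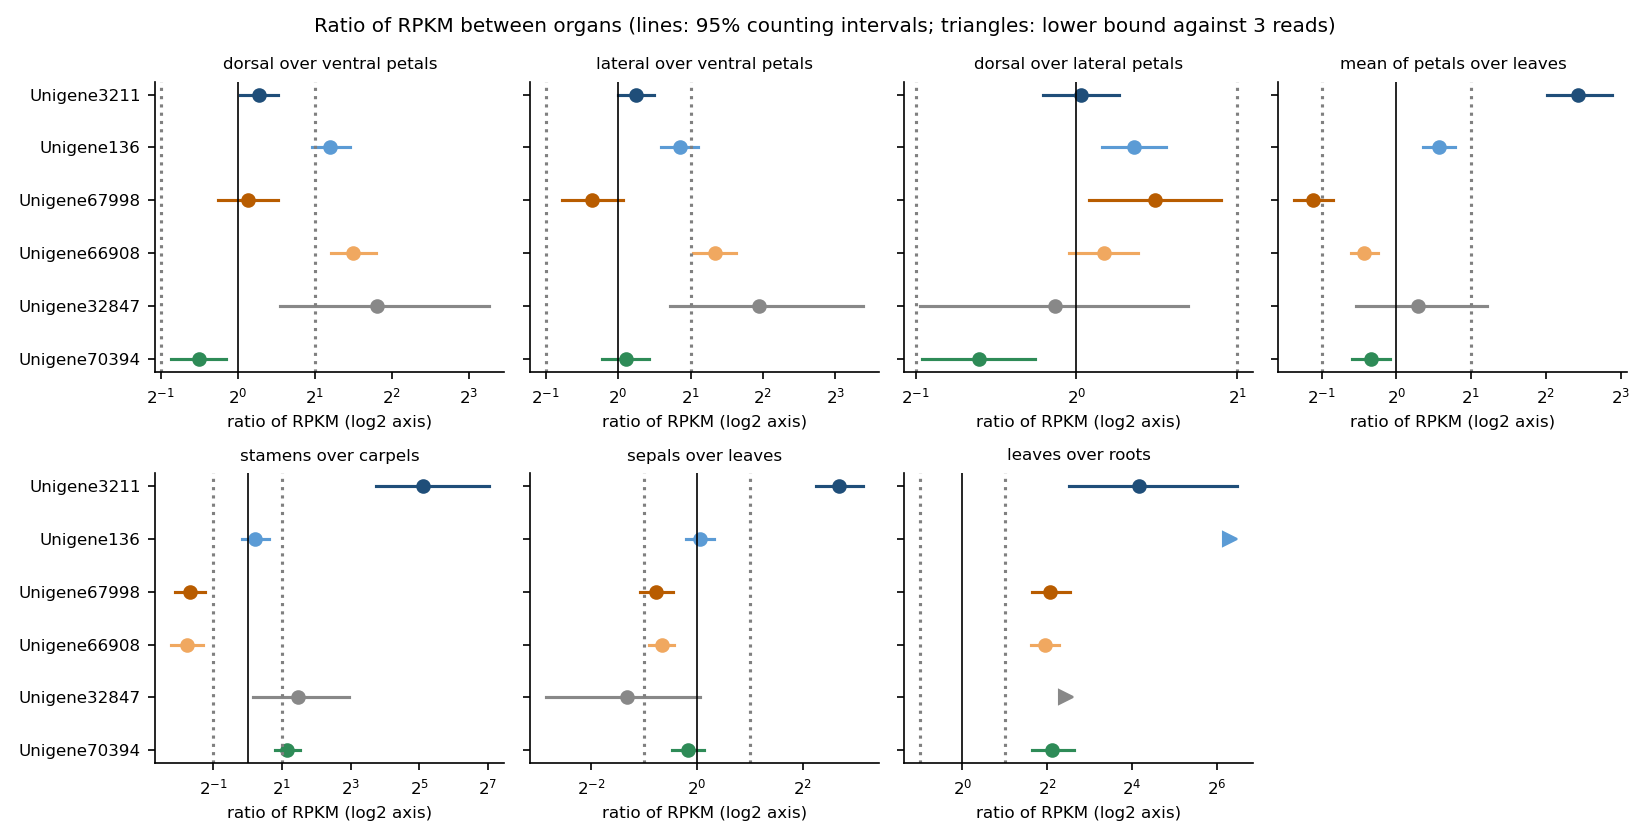
Ratio of RPKM between organs (x axis, log2 scale, a separate range in each panel) for each CIN unigene (y axis), with 95% counting intervals as lines, 1 as a solid line and 2 and 0.5 as dotted lines. Triangles mark lower bounds against a limit of 3 reads. In leaves over roots all 6 lie above 2, while dorsal over ventral petals places Unigene136, Unigene66908 and Unigene32847 above 2 and Unigene70394 at 0.706.

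Summed over the 6, the CIN level was highest in dorsal petals at 268 RPKM, followed by lateral petals at 247, leaves at 217, sepals at 206, ventral petals at 155, carpels at 124, stamens at 120.2 and roots at 40.7 RPKM. Dorsal petals exceeded ventral petals 1.72-fold (1.58 to 1.88), and leaves exceeded roots 5.34-fold (4.59 to 6.24). Stamens were at 0.554 (0.4998 to 0.613) and carpels at 0.570 (0.514 to 0.632) of leaves. The order of dorsal petals and leaves depended on the scaling, with a ratio of 1.24 (1.14 to 1.34) on RPKM and 0.845 after TMM rescaling.

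The make-up of this sum differed between organs. By RPKM, Unigene66908 was the largest contributor in dorsal petals, lateral petals, carpels, leaves and roots. It held 55.9% of the summed RPKM in roots and 40.5% in leaves. Unigene3211 led in sepals, with 29.2%, and in ventral petals, with 28.9%. Stamens were led by Unigene70394, with 26.7%. In sepals, stamens and carpels the counting interval of the leading unigene overlapped that of the next. By reads, which are not scaled to length, Unigene136 led in dorsal petals, with 33.2% (30.7 to 35.7). It also led in lateral petals, with 28.4% (26.0 to 30.9). Of the reads of the 6, Unigene3211 took 29.9% in sepals (27.4 to 32.5), 23.0% in stamens (19.7 to 26.5), 4.79% in leaves (3.56 to 6.28), 1.49% in roots (0.307 to 4.28) and 0.679% in carpels (0.185 to 1.73). In carpels Unigene67998 took 33.4% (29.6 to 37.4) and Unigene66908 took 30.7% (27.0 to 34.6).

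**Figure D3:**
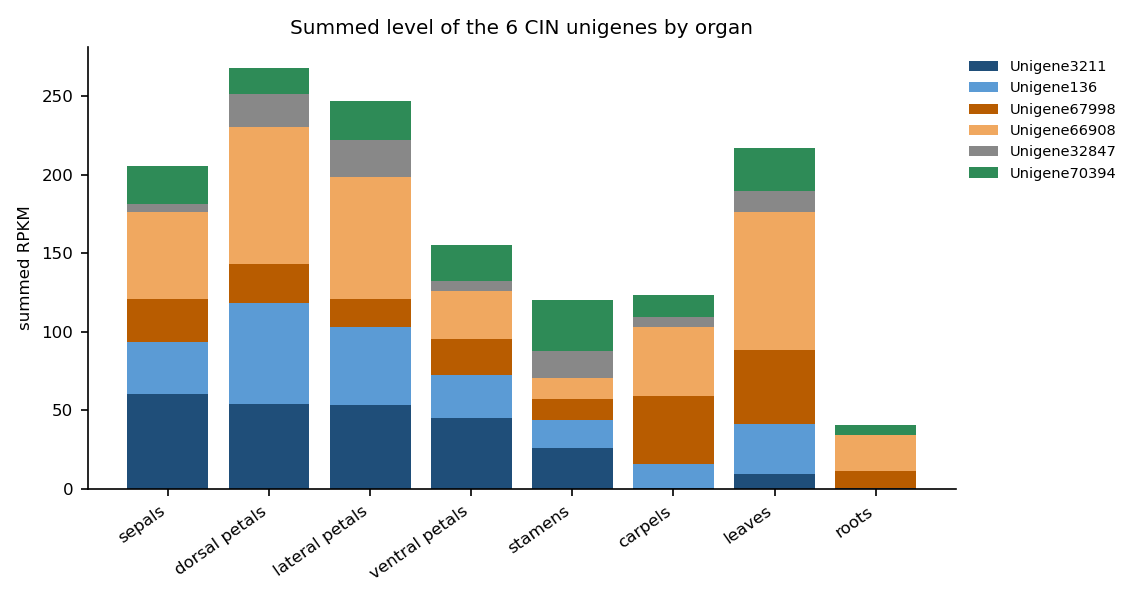
Summed RPKM of the 6 CIN unigenes (y axis, from 0) in each organ (x axis), stacked by unigene, 1 library per organ. Dorsal petals reach 268 RPKM and roots 40.7 RPKM, and Unigene3211 is nearly missing from carpels and roots.

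Pearson's r of log2(RPKM + 1) over the 8 organs ranged from -0.06 to 0.90 for the 15 pairs of CIN unigenes, with a median of 0.59. The most alike pair was Unigene136 and Unigene32847 (0.90), followed by Unigene32847 and Unigene70394 (0.80), Unigene136 and Unigene70394 (0.79), and Unigene3211 and Unigene136 (0.77). The least alike were Unigene3211 and Unigene67998 (-0.06). All pairs share the same 8 libraries, roots among them. Over the 6 floral organs the median was 0.18 and 6 of 15 pairs were negative. Unigene136 and Unigene66908 (0.76) and Unigene3211 and Unigene136 (0.72) were then the most alike, whereas Unigene67998 and Unigene70394, at 0.29 over 8 organs, stood at -0.86. Without leaves and roots, Unigene136 and Unigene32847 stood at 0.52, Unigene32847 and Unigene70394 at 0.21, and Unigene136 and Unigene70394 at -0.09.

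**Figure D4:**
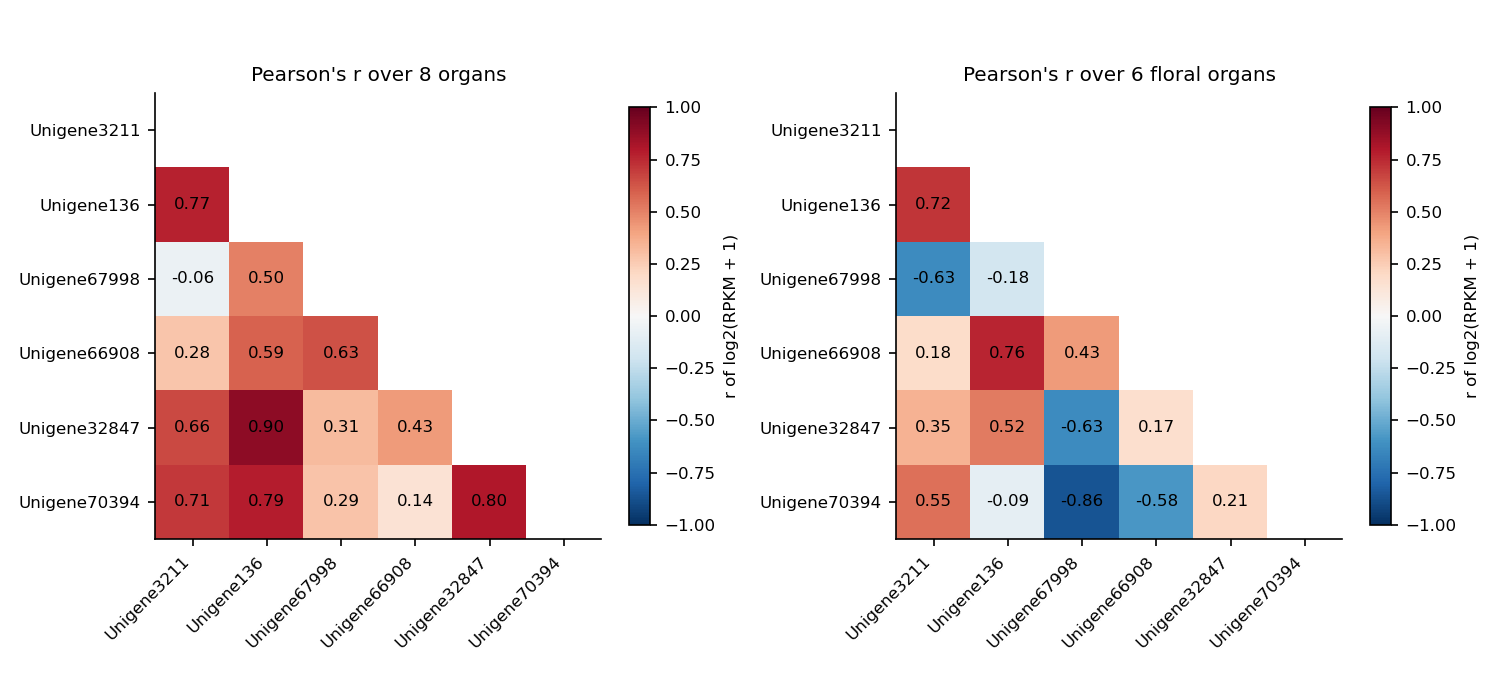
Likeness of each pair of CIN unigenes, as Pearson's r of log2(RPKM + 1), over all 8 organs (left) and over the 6 floral organs (right), on a color scale from -1 to 1. The median is 0.59 on the left and 0.18 on the right.

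Among named unigenes with at least 100 reads, those whose pattern over the 8 organs was most like that of each member were listed, with 4 per member. For Unigene3211 they were Unigene17691 (an ATPase, r = 0.99), Unigene51174 (an OTU-like cysteine protease, 0.99), Unigene67694 (a pentatricopeptide repeat protein, 0.99) and Unigene10538 (a sugar porter, 0.99). For Unigene136 they were Unigene66614 (carbonic anhydrase family), Unigene50203 (an ATP-binding cassette transporter), Unigene53022 (a beta-ketoacyl-CoA synthase) and Unigene23364 (a CONSTANS interacting protein), all at 0.98. For Unigene67998 they were Unigene9473 (MEE40, 0.98), Unigene67520 (GTP cyclohydrolase 1, 0.97), Unigene20790 (a glucosyltransferase, 0.96) and Unigene40239 (2-methyl-6-phytylbenzoquinone methyltransferase, an enzyme of tocopherol and plastoquinone synthesis, 0.96).
Unigene66908 was followed most closely by Unigene70535 (a purine transporter, 0.98), Unigene52416 (LATD/NIP, 0.98), Unigene36019 (peroxidase 47, 0.98) and Unigene58433 (an anionic peroxidase, 0.97). Unigene32847 was nearest to Unigene13749 (a 2OG-Fe oxygenase, 0.97), Unigene37919 (a SNF1-related kinase interacting protein, 0.96), Unigene22575 (purple acid phosphatase 6, 0.96) and Unigene45866 (a glycosyltransferase, 0.95). Unigene70394 was nearest to Unigene64775 (a multidrug and toxic compound extrusion protein, 0.97), Unigene58485 (annotated as 1-aminocyclopropane-1-carboxylate oxidase, the last enzyme of ethylene synthesis, with a spelling variant, 0.97), Unigene10521 (an auxin efflux carrier, 0.96) and Unigene21792 (a protein known by its locus only, 0.95). Each value rests on 8 points from the same libraries, and r does not compare the size of changes. From sepals to roots Unigene17691 went from 21.85 to 3.675 RPKM, and Unigene3211 from 60.2 to 0.528 RPKM. Unigene66614 had 16.4 RPKM in roots, where Unigene136 had 0 reads. Of 44986 unigenes compared, 862 (1.92%) exceeded 0.9 with Unigene3211, and 59 (0.131%) did so with Unigene32847.

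The annotation named a TCP protein for 26 unigenes, of which 5 are CIN members and 21 are not. Of these 21, 8 are CYCLOIDEA-like by name, 7 match Arabidopsis proteins of the PCF group (TCP7, TCP8, TCP9, TCP19, TCP20 and TCP22) and 6 could not be placed by name. Several are short and may be pieces of the same gene. The 8 CYCLOIDEA-like unigenes are relatives of the genes that set dorsal petal identity in papilionoid legumes. They were all more than 2-fold higher in dorsal than in ventral petals and were all enriched in petals as a group. All but Unigene15024 and Unigene18024 were also enriched in dorsal petals alone. The 8 had 0 reads in roots and at most 2 in leaves. Of the reads of Unigene68683, dorsal petals held 722, lateral petals 2 and ventral petals 20, whereas for Unigene18024 these organs held 186, 169 and 6. The 3 CIN unigenes above 2-fold in dorsal over ventral petals had ratios of 2.30 to 3.49 and 15 to 354 reads in leaves.

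Among the 13 PCF and unplaced TCP unigenes, 4 were above 2-fold and 2 below 0.5 in dorsal over ventral petals. The shares over all unigenes tested were 8.80% and 11.8%. In leaves over roots 12 of the 13 had at least 10 reads in either organ. Of these, 3 were above 2-fold and 1 below 0.5, with a median ratio of 1.11. Over all unigenes tested 21.2% were above 2-fold, near the share of these TCP unigenes, and 37.7% below 0.5. The PCF-type Unigene70428 (TCP19) was highest in roots, at 71.5 RPKM. Unigene13289 (TCP22) was enriched in leaves, at 14.2 RPKM. Unigene16302 (TCP20) was highest in carpels, at 47.1 RPKM, and Unigene56518 (TCP9) in leaves, at 73.4 RPKM. Unigene46125 and Unigene63610 (both TCP8) and Unigene66157 (TCP7) were highest in sepals, at 75.6, 47.0 and 64.2 RPKM.
Among the unplaced, Unigene22366, a fragment of 163 bp annotated as TCP2 of Romneya, had 71.2 RPKM in dorsal petals, 31.5 in ventral petals, 44.7 in leaves and 12.6 in stamens. Its order of dorsal over ventral petals (2.26) and its call as downregulated in stamens are shared with Unigene66908. Unigene14075, which like Unigene67998 matches PCF8 of rice, was enriched in ventral petals with 42 of its 71 reads. Since a CIN member has the same match, the unplaced unigenes may include CIN-type ones and are not a clean contrast to the members. Unigene43092 (TCP1 of Lupinus albus) was downregulated in roots, with 2 reads there against 24 in leaves. Unigene65020 (a maize TCP-domain protein) was lowest in leaves, with 1 read. Unigene17427 was highest in sepals at 31.4 RPKM, and Unigene50478 in leaves at 56.0 RPKM.

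**Figure D5:**
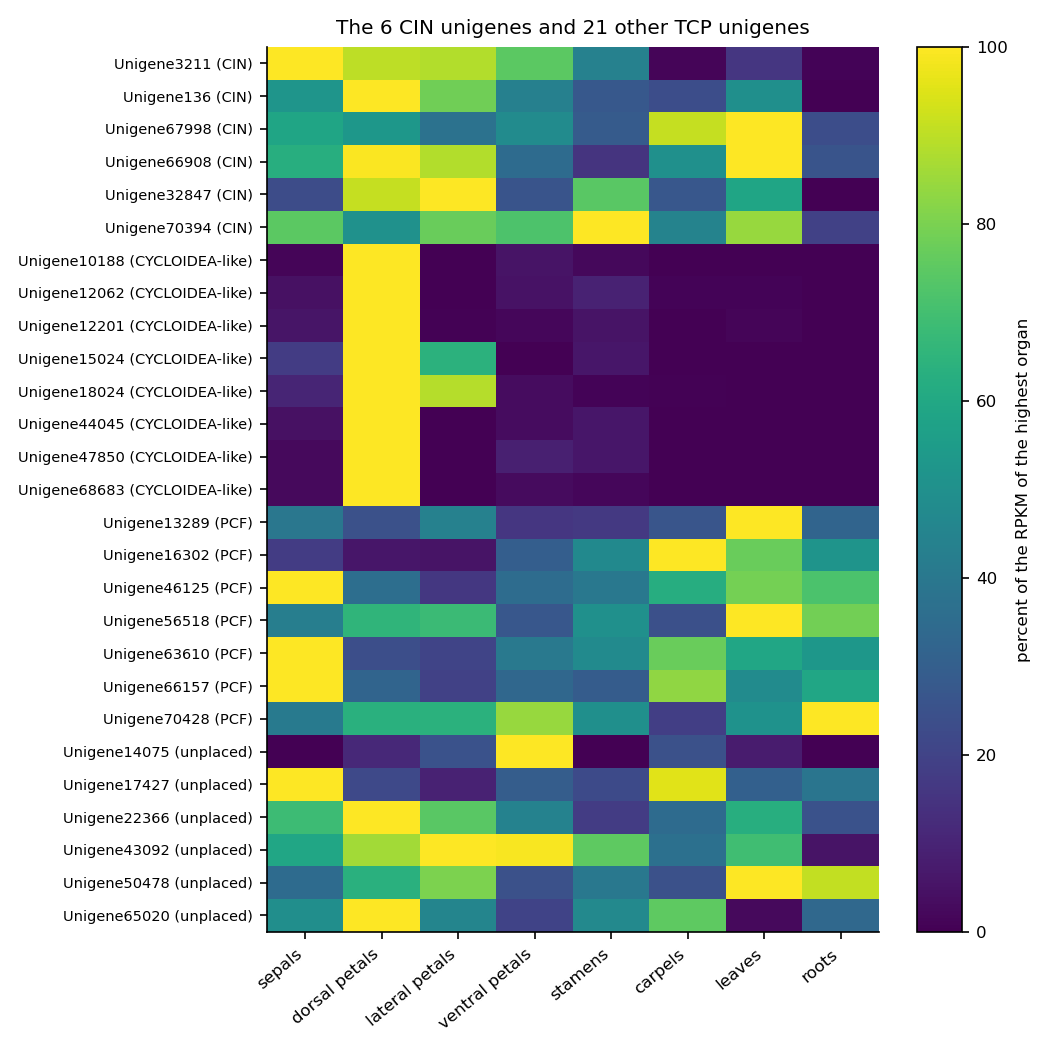
Level of the 6 CIN unigenes and the 21 other TCP unigenes (rows) in each organ (columns), as a percentage of the RPKM in the organ where that unigene is highest. The CYCLOIDEA-like rows are highest in dorsal petals, with Unigene15024 and Unigene18024 also high in lateral petals. The highest organ of the CIN rows varies.

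Gene groups linked to CIN proteins, among them the downstream groups named above, were gathered by words in the annotation. Unigenes with at least 100 reads were kept, and the groups are given beside all 44987 such unigenes. Over these, the median log2 ratio was 0.55 for petals over leaves, -0.17 for carpels over leaves and -0.46 for leaves over roots. Of these unigenes, 35.4% were above 2-fold and 14.9% below 0.5 in petals over leaves, 30.0% and 34.5% in carpels over leaves, and 21.5% and 33.7% in leaves over roots. Whether the groups respond to the CIN unigenes of vetch was not tested.

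Jasmonate synthesis (lipoxygenases, allene oxide synthase and cyclase and 12-oxophytodienoate reductase) had 86 unigenes, of which 49 (57%) were above 2-fold and 13 (15.1%) below 0.5 in petals over leaves, with a median log2 ratio of 1.75. In carpels over leaves 55 (64.0%) were above 2-fold and 17 (19.8%) below 0.5 (median 1.62). In leaves over roots 40 (46.5%) were above 2-fold and 29 (33.7%) below 0.5, and the median of 0.13 was 0.61 after TMM rescaling and -0.28 with a minimum of 10 reads. The words also take in lipoxygenases that act outside jasmonate synthesis. The member with the most reads, the lipoxygenase Unigene4609, had 1670 RPKM in carpels, 1668 in ventral petals, 1123 in dorsal petals and 45.7 in leaves. Unigene16618 (seed lipoxygenase-3) had 911.5 RPKM in ventral petals, 747 in carpels, 483 in dorsal petals and 24.8 in leaves.

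The 2 boundary NAC unigenes, both annotated as CUP-SHAPED COTYLEDON1, which marks boundaries between organs, were higher in petals than in leaves. Unigene16111 had 16.2 RPKM as the mean of petals, 33.2 in stamens, 13.9 in roots, 1.30 in leaves and 1.12 in carpels. Unigene63277 had 21.9 RPKM as the mean of petals, 31.5 in stamens, 13.3 in roots, 2.97 in leaves and 0.973 in carpels. Stamens are thus their highest organ. In that organ Unigene66908 was at its lowest, Unigene70394 at its highest (32.1 RPKM) and Unigene32847 at 74.4% of its highest level. Unigene3211, Unigene136 and Unigene67998 were at 43.9%, 27.7% and 28.7% of theirs. The class I KNOX unigene, Unigene12633 (SHOOT MERISTEMLESS, a keeper of meristem cells), had 20.9 RPKM in leaves, 9.05 in sepals, 4.80 as the mean of petals, 4.56 in roots and 0.653 in carpels.

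Growth-regulating factors, which promote cell number in young leaves, had 7 unigenes. In carpels over leaves 6 (85.7%) were above 2-fold and 1 (14.3%) below 0.5 (median log2 ratio 2.80), and in leaves over roots 0 were above 2-fold and 5 (71.4%) below 0.5 (median -2.89). In petals over leaves 1 (14.3%) was above 2-fold and 4 (57.1%) below 0.5 (median -1.02). Unigene5209 had 81.3 RPKM in carpels, 41.9 in roots, 22.4 in leaves and 7.497 as the mean of petals. Unigene68373 (GRF4) departed from this order, with 24.4 RPKM in carpels and 50.9 in both leaves and roots.

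Cyclins D and B, which drive entry into and passage through the cell cycle, had 12 unigenes. In carpels over leaves 11 (91.7%) were above 2-fold and 0 below 0.5 (median log2 ratio 4.52), and in leaves over roots 4 (33.3%) and 7 (58.3%) (median -1.96). In petals over leaves 1 (8.33%) was above 2-fold and 4 (33.3%) below 0.5 (median -0.32). Unigene70947 (cyclin D) had 614 RPKM in carpels, 83.9 in roots, 22.5 in leaves and 17.6 as the mean of petals. Unigene70883 (cyclin B) had 201.7 RPKM in carpels, 84.1 in roots, 0.818 in leaves and 0.593 as the mean of petals. Carpels and roots are the organs in which Unigene3211 had 4 and 3 reads, whereas Unigene67998 was at 43.0 RPKM in carpels and 11.2 RPKM in roots. Unigene66908 was at 44.2 and 22.7 RPKM in these organs, and Unigene70394 at 14.4 and 6.21 RPKM. Unigene136 had 15.2 RPKM and Unigene32847 6.34 RPKM in carpels, both with 0 reads in roots.

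The leaf polarity words (Asymmetric Leaves, Rough Sheath2, Phantastica) found 12 unigenes, mostly through the LOB domain proteins that share the Asymmetric Leaves name. In petals over leaves 5 (41.7%) were above 2-fold and 3 (25%) below 0.5 (median log2 ratio 0.62), near the shares over all unigenes. In carpels over leaves 8 (66.7%) and 3 (25%) were so (median 1.74), and in leaves over roots 4 (33.3%) and 3 (25%) (median -0.53). Unigene4333, an RNA-binding partner of Rough Sheath2, had 3.90 RPKM in carpels and 26.3 to 39.9 RPKM in the other organs. Unigene61790 (LOB domain-containing protein 6) had 155.4 RPKM in carpels, 68.2 in leaves and 4.96 in roots.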

How the data were processed

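Poly(A) RNA of 8 organs, 1 library each, was sequenced by the authors on an Illumina instrument after random-hexamer cDNA synthesis, and libraries were grouped by the organ in their labels. The read counts deposited by the authors number the uniquely aligned reads of every unigene in a de novo assembly and carry no normalization. The RPKM deposited by the authors scale these counts to unigene length and to the library's total. The percent of each unigene covered by reads was also deposited by the authors. Which aligner was used is not given in the sources used. No genome build applies, since the assembly was the reference. Reads that align to several unigenes are not counted, so a gene assembled in several pieces or with a close copy can lose reads.

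The 8 tables were joined by unigene, and an absent unigene was set to 0 reads. RPKM was recomputed from the counts (largest relative difference from the deposited values 5.58e-09). The 6 members come from the study's tree. The members, lists and rules were chosen with earlier results of these data known. The call rules are those of the study's methods, with the sample SD of the other organs, and the Ratio for downregulation was taken against the mean of the other organs. Only the nr annotation is in the tables used here, so word searches that were also meant for Swiss-Prot used nr alone. Named unigenes are the 6, the other TCP unigenes, the 4 most alike to each member and the 2 with most reads per list. Depth ran from 93.8% to 110% of a median of 5706811 reads per library. A count of 0 was given a limit of 3 reads per library, and PCR copies were not told apart. TMM (edgeR 4.0.16 in R 4.3.3), median-of-ratios factors, other pseudocounts, filters and organ sets were tried. TMM factors lie from 0.773 in leaves to 1.13 in dorsal petals, a shift of log2 RPKM by 0.37 and -0.17. The call rules were tested on simulated data. Intervals were computed with scipy 1.17.1, figures drawn with matplotlib 3.10.9 and tables handled with pandas 2.3.3 (Python 3.11.15). The qRT-PCR values and the unigene sequences were not analysed here.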

Additional observations from a re-analysis of the deposited data

How the results depend on the processing

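With 1 library per organ, no result carries an error between plants, and unigenes with few reads, above all Unigene32847, have wide intervals. With TMM rescaling the summed level of dorsal petals over leaves turned from 1.24 to 0.845, that of leaves over roots was 7.46 and that of stamens over leaves 0.429, because TMM raises leaves and carpels relative to the other libraries. Members below 0.5 in sepals over leaves numbered 3 with TMM and 3 with median-of-ratios factors, against 1 on RPKM. Calls as enriched numbered 1 with the population SD (Unigene3211 in the A domain) and 2 when only floral organs were compared, against 0. Calls as downregulated in a single organ numbered 2 with floral organs only, where roots are left out, against 4. Taking the Ratio for downregulation against the highest other organ, chosen after seeing the data, gave the same 4 calls. With TMM and with the population SD, Unigene3211 was also called downregulated in carpels and roots, and with TMM Unigene66908 was no longer called in stamens. The median r of the 15 pairs was 0.33 with Spearman's rho, 0.54 with a pseudocount of 0.1 and 0.18 with floral organs only, against 0.59. With TMM the lowest organ was the same for all 6 and the highest for 5, Unigene70394 moving from stamens to leaves. Of 48 levels, 11 moved outside their counting interval with TMM. Without a filter on reads, 13.5% of unigenes were above 2-fold in dorsal over ventral petals. With a minimum of 10 reads over all libraries, the leaf polarity list gave no finite median for petals or carpels over leaves. No paired analysis was possible because each organ has 1 library.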
